A study of Mus musculus with 5 samples.

Results

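DNA methylation in a teratoma labelled P5_a2iL was set against that in muscle, the control tissue, with 1 library of each among the 5 libraries of the study. Both come from mice of the C57BL/6x129S6 background. The teratoma arose after embryonic stem cells had been injected into tetraploid embryos, and P5_a2iL (P5_a2iL_1 in the labels) names the culture condition of those cells, which the labels do not spell out. The labels give no age, sex or allele, and do not say from which animal or muscle the control was taken. The other 3 libraries are teratomas labelled P5_2iL, P5_2iL_F and P5_LCDM, and their levels are given beside some values. Each was measured against the same muscle library, so differences from muscle are not independent between teratomas.

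The assay was reduced representation bisulfite sequencing, a method that covers mainly CpG-rich DNA at the scale of single CpG cytosines. The P5_a2iL file listed 4446459 cytosines and the muscle file 4017125, in a study range of 4017125 to 5323090. Of these, 3397692 were listed in both, 76.5% of those in P5_a2iL and 84.6% of those in muscle, and every comparison used those alone. Read numbers are not in the files, which leaves the depth of every percent unknown, and with 1 library a side no difference has a replicate check or a test. The unit of comparison was the 1 kb tile, fixed along each chromosome, with 5 or more shared cytosines. These were 172627 of 829150 tiles with any listed cytosine. A difference of 25 percentage points or more between mean levels was counted as higher or lower, and this size rule is the sense of both words in all counts.

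A teratoma is a tumour of differentiated tissues that grows from pluripotent cells, and muscle is a tissue of multinucleated fibres with vessels, nerve endings, connective tissue and resident blood cells between them. CpG methylation is copied by Dnmt1 at cell division and laid down by Dnmt3a and Dnmt3b. Promoters dense in CpG are as a rule unmethylated in every tissue, while CpG-poor promoters and regulatory DNA tend to lose methylation in the cell types that use them and to stay methylated elsewhere. Imprinted genes carry methylation on the copy from 1 parent. In DNA from a whole tissue, a different share of cells of a type and a different level per cell cannot be told apart.

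Promoters show single cytosines most directly. In RefSeq promoters of 300 bases (250 before to 50 after the gene start, GRCm38.p6), 191 of 10278 measured were higher in P5_a2iL (1.86% of those tested) and 48 were lower (0.467%). The 3 with the largest difference each way are printed, among those with 10 or more shared cytosines and 25 points or more on each strand alone, leaving out predicted genes. They were picked after their values had been seen. Each is written 5′ to 3′ on the strand of its gene, and capitals mark the CG dinucleotides with a cytosine listed in both libraries.
Hoxa5, chr6:52204538-52204837, minus strand: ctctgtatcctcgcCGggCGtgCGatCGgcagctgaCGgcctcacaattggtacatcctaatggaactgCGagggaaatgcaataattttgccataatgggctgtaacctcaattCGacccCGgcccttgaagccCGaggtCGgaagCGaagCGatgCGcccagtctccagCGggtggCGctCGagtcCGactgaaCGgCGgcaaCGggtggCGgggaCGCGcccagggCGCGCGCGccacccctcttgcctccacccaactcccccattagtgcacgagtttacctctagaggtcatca
Mamstr, chr7:45639727-45640026, plus strand: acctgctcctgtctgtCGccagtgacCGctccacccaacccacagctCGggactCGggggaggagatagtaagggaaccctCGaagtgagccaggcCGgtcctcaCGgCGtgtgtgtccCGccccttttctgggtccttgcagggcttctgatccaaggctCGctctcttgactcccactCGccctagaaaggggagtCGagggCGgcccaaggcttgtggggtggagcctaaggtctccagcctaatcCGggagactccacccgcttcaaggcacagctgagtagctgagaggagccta
Gjb1, chrX:101383482-101383781, plus strand: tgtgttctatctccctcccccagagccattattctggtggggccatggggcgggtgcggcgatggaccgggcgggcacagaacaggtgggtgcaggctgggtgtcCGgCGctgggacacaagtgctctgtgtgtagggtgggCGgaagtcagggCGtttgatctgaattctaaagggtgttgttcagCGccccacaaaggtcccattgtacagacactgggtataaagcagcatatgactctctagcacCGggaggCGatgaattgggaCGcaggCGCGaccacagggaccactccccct
Il12a, chr3:68691174-68691473, plus strand: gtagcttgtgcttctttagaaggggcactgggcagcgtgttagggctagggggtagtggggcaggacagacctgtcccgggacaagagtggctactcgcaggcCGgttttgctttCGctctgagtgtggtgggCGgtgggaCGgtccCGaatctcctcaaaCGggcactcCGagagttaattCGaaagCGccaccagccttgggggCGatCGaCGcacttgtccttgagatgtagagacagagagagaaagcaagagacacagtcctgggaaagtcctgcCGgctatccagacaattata
Arhgap27, chr11:103344653-103344952, minus strand: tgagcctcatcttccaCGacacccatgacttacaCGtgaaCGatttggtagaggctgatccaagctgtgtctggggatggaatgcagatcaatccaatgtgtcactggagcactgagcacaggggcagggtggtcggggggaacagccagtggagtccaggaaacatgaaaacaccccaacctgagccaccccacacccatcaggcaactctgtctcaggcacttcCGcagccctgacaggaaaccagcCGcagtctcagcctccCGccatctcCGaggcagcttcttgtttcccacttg
Thpo, chr16:20734462-20734761, minus strand: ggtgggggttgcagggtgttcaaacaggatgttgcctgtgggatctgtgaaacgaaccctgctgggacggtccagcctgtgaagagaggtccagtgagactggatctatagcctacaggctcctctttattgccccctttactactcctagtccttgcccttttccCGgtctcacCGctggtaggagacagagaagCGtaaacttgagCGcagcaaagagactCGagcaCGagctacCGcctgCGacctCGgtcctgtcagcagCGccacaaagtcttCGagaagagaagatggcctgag

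The first 3 were more methylated in the teratoma and the last 3 less. Hoxa5, a homeobox gene of body patterning, averaged 72.6% in P5_a2iL against 4.94% in muscle over 53 cytosines. Of these, 52 stood at 50% or more in P5_a2iL and 0 in muscle, so the difference ran through the whole of the CG-dense stretch. Its level was 92.6% in P5_2iL, 65.1% in P5_2iL_F and 3.14% in P5_LCDM, the last near that of muscle. Mamstr, a coactivator of MEF2 factors in muscle, averaged 75.9% against 16.02% over 27 cytosines. Gjb1 on the X chromosome, which encodes the gap junction protein connexin 32, averaged 62.97% against 11.8% over 19.

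At the lower promoters nearly every measured cytosine was lower, though these cytosines cover only part of each printed sequence. Il12a, which encodes the p35 subunit of interleukin 12, averaged 20.2% in P5_a2iL against 85.9% in muscle, and all 25 cytosines were lower in P5_a2iL. It stood at 0.753% in P5_2iL, 6.87% in P5_2iL_F and 44.8% in P5_LCDM. Thpo, the gene of thrombopoietin, averaged 14.3% against 67.5%, with 21 of 21 cytosines lower in P5_a2iL. Arhgap27, a GTPase-activating protein gene, averaged 24.2% against 82.1% over 14, and 13 of these were lower. Neighbouring cytosines are often on the same sequenced fragment, so they are not separate measurements. The Hoxa5 and Mamstr promoters each hold the letters CAGCTG, a palindrome read on both strands that fits the E-box of basic helix-loop-helix factors, as do 15.6% of 21263 RefSeq promoters of this length.

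**Figure D1:**
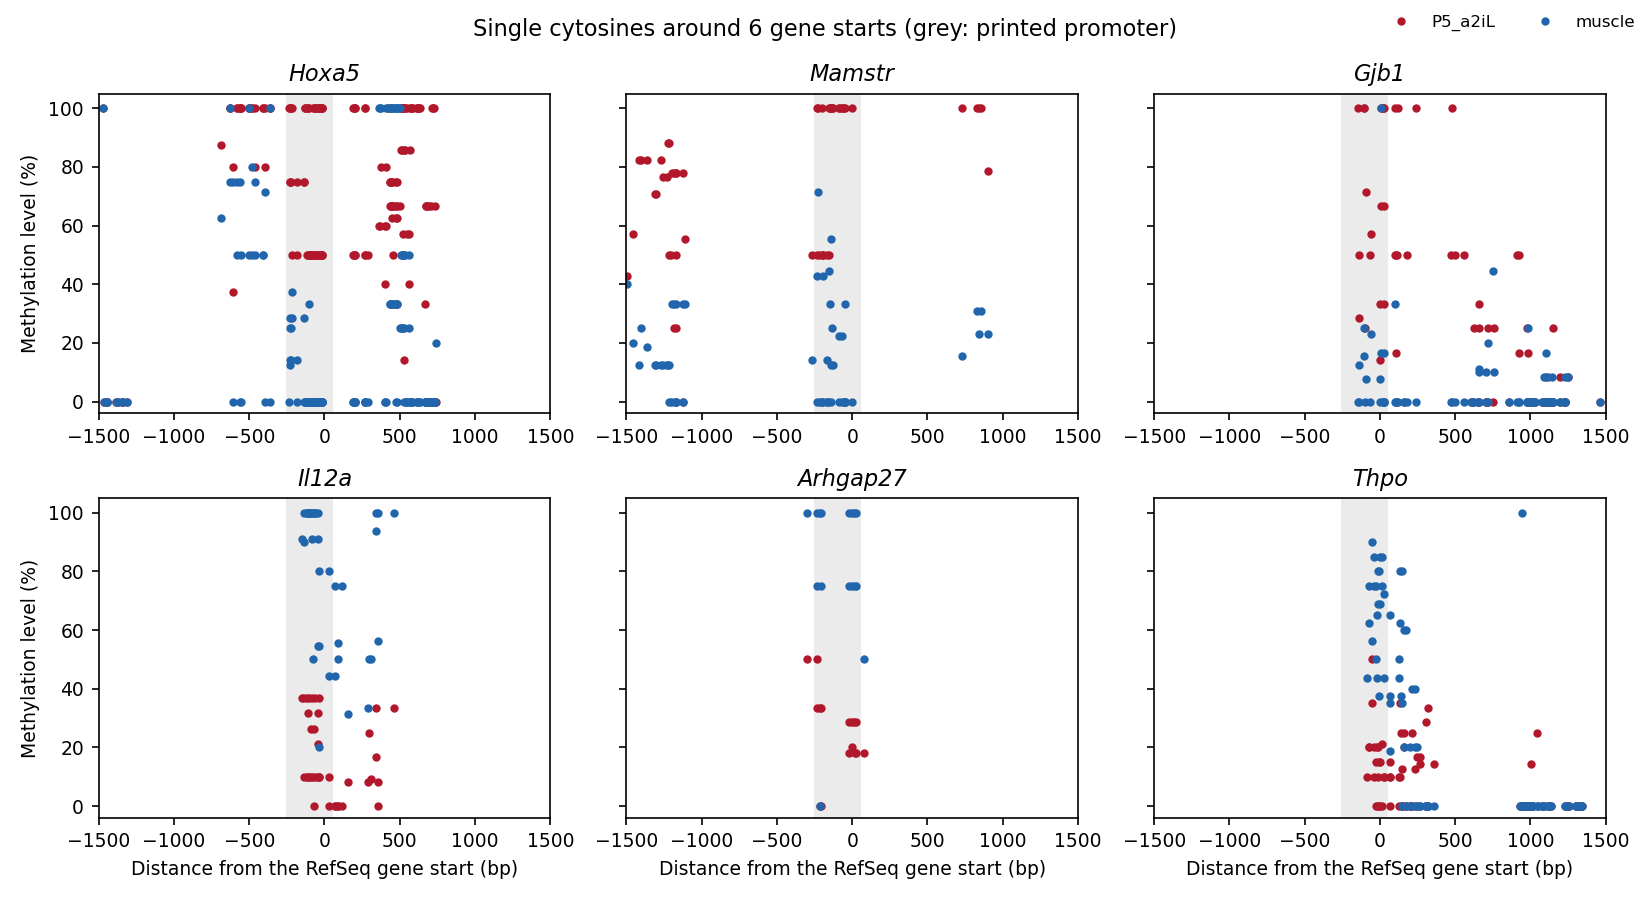
Methylation level of each shared cytosine (percent, y axis) against its distance from the RefSeq gene start (bp, x axis) in P5_a2iL (red) and muscle (blue) for the 6 printed promoters, with the printed 300 bases in grey. In the grey stretch P5_a2iL averages 72.6% at Hoxa5 against 4.94% in muscle, and 20.2% at Il12a against 85.9%.

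Promoters dense in CG rarely differed. Among promoters with 20 or more CG in 300 bases 0.39% were higher and 0.045% lower, of 6660. Among the 726 with 5 to 9 CG, 12.5% were higher and 3.72% lower, and among the 71 with 0 to 4 CG, 12.7% were higher and 7.04% lower. The median promoter holds 13 CG, and the printed ones hold 8 to 29.

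Over all shared autosomal cytosines the teratoma was slightly more methylated, at 46.97% against 43.2% in muscle, a difference of 3.8 points. Fully unmethylated cytosines (0%) made up 37.7% in P5_a2iL and 41.9% in muscle, while fully methylated ones (100%) made up 22.6% and 22.95%. Mean levels were 55.4% against 53.5% on the X chromosome and 85.1% against 83.4% on the Y chromosome. Error could be gauged only by comparing both strands of a CpG within a library. Over 1030940 such pairs this gave a spread of 15.9 points per cytosine in P5_a2iL and 16.7 in muscle, which leaves out the spread between animals and between library preparations.

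Tiles were higher more often than lower. Of 172627 tiles, 17127 were higher (9.92%) and 4121 lower (2.39%), with a median difference of 1.53 points over all tiles. The strands within 1 library gave a gauge of sampling spread, from means over the cytosines of 1 strand. Each such mean rests on fewer cytosines than a tile mean, so these shares are not the error of whole tiles. Over tiles with 3 or more cytosines on each strand, strands stood 25 points or more apart in 8.27% within P5_a2iL and in 9.95% within muscle, and opposite strands of the 2 libraries in 15.9%. With each strand taken alone, 5742 of 116131 tiles passed the rule upward on both and 806 downward on both, while in 637 the strands passed in opposite directions.

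**Figure D2:**
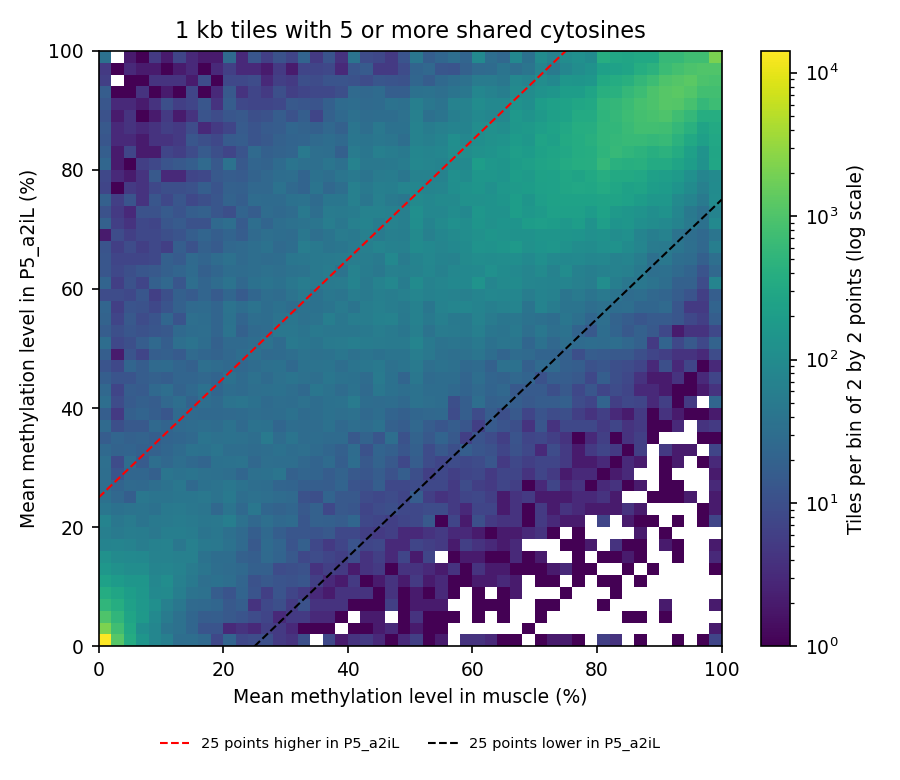
Mean methylation level of 172627 tiles of 1 kb in P5_a2iL (y axis, percent) and muscle (x axis, percent), as the number of tiles per bin of 2 by 2 points on a log colour scale. Most tiles lie near both ends of the diagonal, and more lie above the upper dashed line (25 points higher, 17127 tiles) than below the lower one (25 points lower, 4121 tiles).

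The share of higher tiles was largest at intermediate levels in muscle. The classes rest on the muscle level that also enters the difference, so these shares are not independent of the rule. Where muscle stood at 25 to 50%, 42.3% of tiles were higher in P5_a2iL, and where it stood at 10 to 25%, 39% were. Of tiles under 10% in muscle 6.56% were higher (1900 tiles), and of those from 50 to 75%, 13.5% (4525 tiles). Tiles above 75% in muscle cannot gain 25 points, and tiles under 25% cannot lose them. Of tiles at 90% or more in muscle 3.84% were lower. Of the tiles at 25 to 50% in muscle, 42.9% stood at 50 to 75% in P5_a2iL and 18.8% at 75 to 90%, while 26.0% stayed in their class.

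CpG density and position went with the calls. Of tiles with 5 to 9 listed cytosines 12% were higher and 3.6% lower, and the shares fell with each denser class, to 0.835% and 0.125% of tiles with 80 or more. Thinly covered tiles also have the fewest values behind each mean, so density and sampling spread move together here and their parts were not tested. Tiles inside gene bodies were higher in 11.8% and lower in 2.62%, those more than 10 kb from a gene in 10% and 2.54%, and those at gene ends in 4.66% and 1.17%. In each class of density more tiles were higher in bodies than at gene ends, such as 13.1% and 9.48% at 10 to 19 cytosines. The place of tiles far from genes was not fixed. At 10 to 19 cytosines their share of 10.8% lay between those 2, at 5 to 9 it was 10.7%, below the 12.2% at gene ends, and at 80 or more it was 5.61% of 303 tiles, above the 1.62% in bodies. On the X chromosome 5.05% of tiles were higher, below each autosome, where the share ran from 8.9% to 11.1%.

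**Figure D3:**
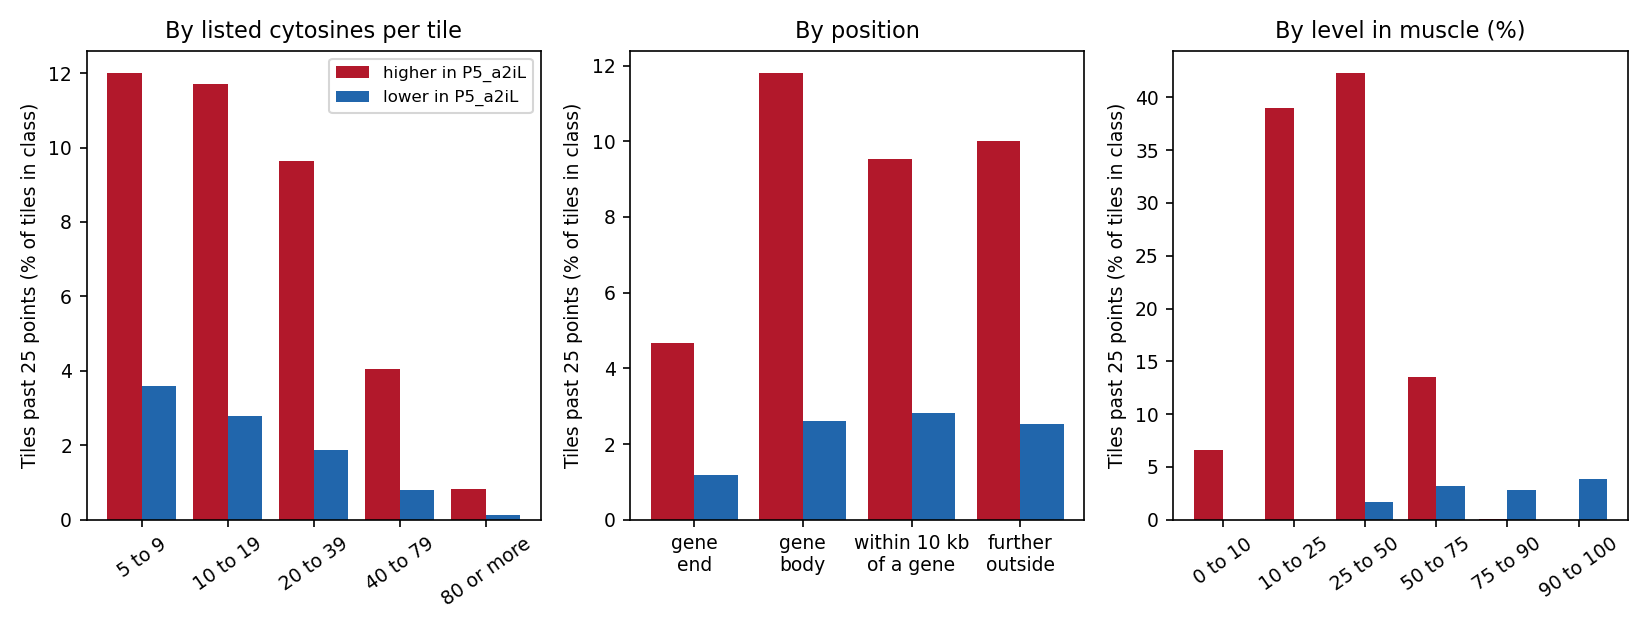
Share of 1 kb tiles higher (red) or lower (blue) in P5_a2iL by 25 points or more, as percent of the tiles in each class, by listed cytosines per tile, by position and by level in muscle (percent). The share of higher tiles is 12% in the sparsest class and 0.835% in the densest, and it is 42.3% where muscle stands at 25 to 50%.

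In the other teratomas the same higher tiles mostly stood high as well. Over 15853 higher tiles measured in all libraries the median level was 77.6% in P5_a2iL, 88.2% in P5_2iL, 85.5% in P5_2iL_F, 66.8% in P5_LCDM and 35.7% in muscle. P5_a2iL lay between the other teratomas in 9500 of these, above all 3 in 2879 and below all 3 in 3474. Over 3449 lower tiles the median was 47.04% in P5_a2iL, 67.5% in P5_2iL, 66.4% in P5_2iL_F, 62.9% in P5_LCDM and 82.7% in muscle. Here P5_a2iL was below all 3 in 1850 tiles. The tiles were chosen for their level in P5_a2iL and muscle, which alone places P5_a2iL toward the outside of such an order.

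The single tiles with the largest differences lay mostly within or far from genes. The tile at chr6:119575001-119576000 in Erc1, a scaffold gene of presynaptic active zones, stood at 97.2% in P5_a2iL against 0% in muscle over 12 cytosines. A tile 25254 bp from Mrpl23 at chr7:142566001-142567000 stood at 100% against 0% over 11. Tiles in Abr, Cachd1 and Arap3 and one 9820 bp from Cited1 had differences of 89.3 to 93.3 points. Downward, a tile in Aldh3a2, a fatty aldehyde dehydrogenase gene, at chr11:61225001-61226000 stood at 0% in P5_a2iL against 81.8% in muscle over 11 cytosines. It was at 66.1% in P5_2iL, 73.2% in P5_2iL_F and 30% in P5_LCDM. A tile in Camk2b, a calcium/calmodulin-dependent kinase gene of neurons and muscle, at chr11:6006001-6007000 stood at 16.9% against 92.3%, and in the other teratomas at 14.6% to 29.1%. The other lower tiles, near Olfr49, Thbs4, Zfp36l2 and Katnal1, had differences of -73.8 to -73.1 points.

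Called tiles also came in runs of 3 or more with no gap over 2000 bp, 164 of them higher and 11 lower. The longest, of 9 tiles over Jak3 and Insl3 (chr8:71679001-71691000), averaged 78.8% in P5_a2iL against 25.6% in muscle over 199 cytosines. Jak3 is a kinase of cytokine receptors in lymphocytes, and Insl3 a hormone of Leydig cells. A run of 6 tiles covered Hoxa3, Hoxa5 and Hoxa6 (chr6:52197001-52206000) at 74.8% against 32.1%. A run of 5 at the endothelial gene Rasip1 and its neighbour Mamstr (chr7:45638001-45643000) stood at 71.4% against 18.6%, and a run of 8 in Synpo, an actin-binding gene, at 76.02% against 31.3%. Of the lower runs, 4 tiles at Gata3 (chr2:9868001-9873000), a transcription factor gene of T cells and several epithelia, averaged 33.9% against 71.5%. Another 3 tiles in Camk2b (chr11:6006001-6009000) averaged 25.4% against 89.4%, and 3 in Cep85, a centrosome gene, 13.4% against 84.7%.

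Gene ends were compared next, each as a window that reached 1000 bp outward and 500 bp into the gene, at whichever end had more shared cytosines. Of 14396 genes measured, 408 were higher (2.83%) and 96 lower (0.667%), with a median difference of 0.213 points. Some genes share a window, and the called ones made up 404 and 94 distinct windows. The RefSeq strand showed that 10243 windows lay at the start of their gene, where 1.97% were higher and 0.449% lower. At the 1194 windows known to lie at the far end of the gene the shares were 8.63% and 2.68%, and for 2959 genes the strand was not in the table used. With gene starts alone 226 of 10677 were higher and 52 lower. The rule cut through a continuous range, since Slurp2, Dram1 and Ift22 stood exactly at 25 points and Atp6v0a2 at 24.9, Rinl at -25.1 and Tmem249 at -25, against Muc20 and Rnase2a at -24.99 and -24.97.

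**Figure D4:**
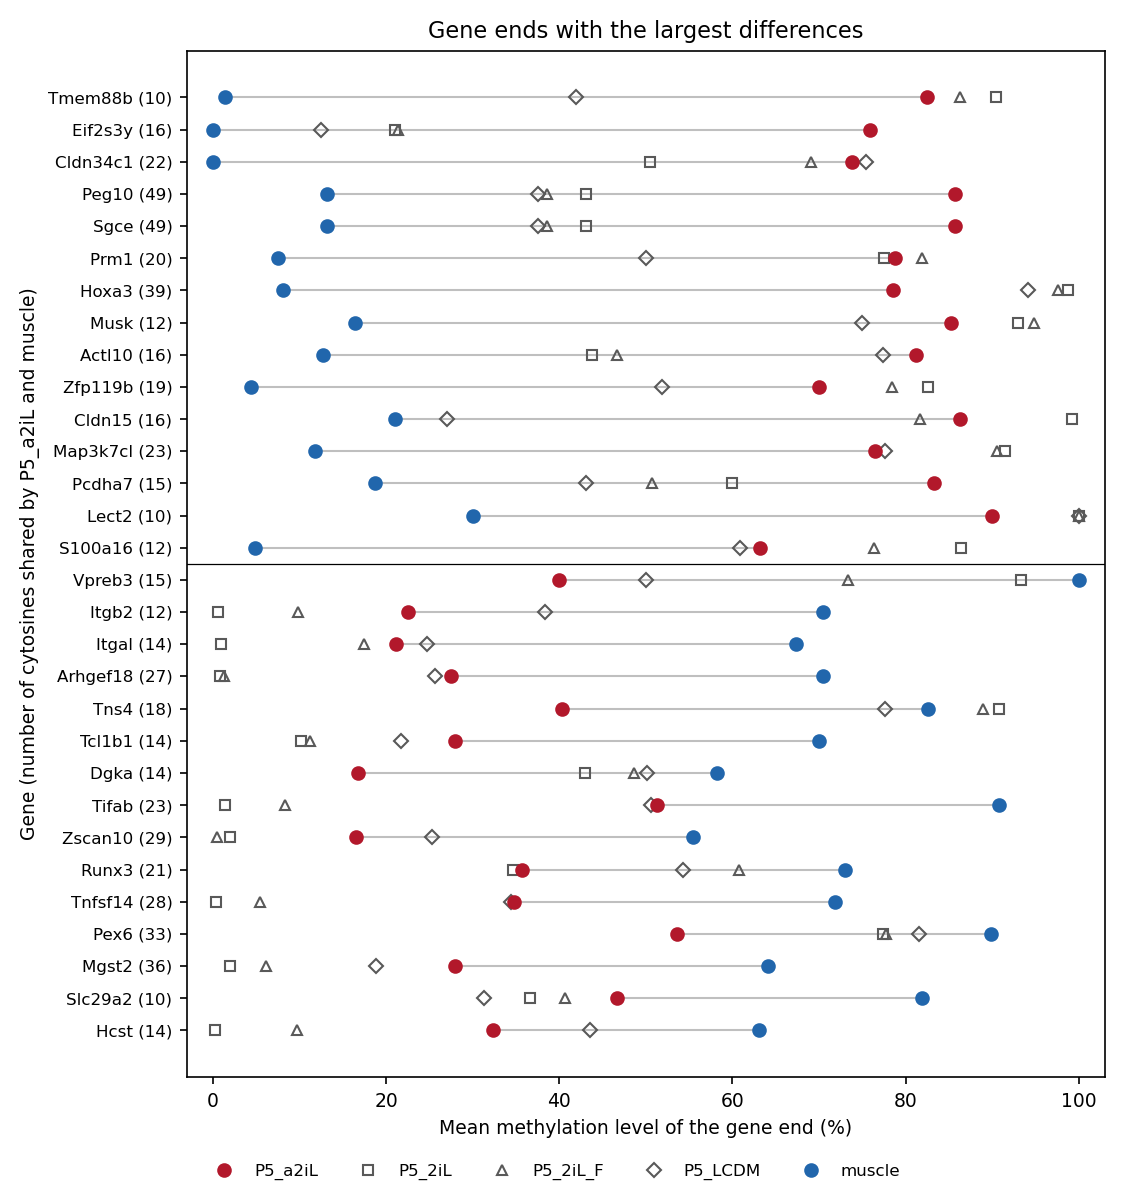
Mean methylation level (percent, x axis) of the 15 gene ends with the largest differences each way, in P5_a2iL (red), muscle (blue) and the other 3 teratomas (open symbols), with the number of cytosines shared by P5_a2iL and muscle after each name. Above the line P5_a2iL stands at 63.2 to 90%, against 0 to 30% in muscle, and below it at 16.5 to 53.7%, against 55.5 to 100% in muscle.

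Among gene ends, the largest upward differences included imprinted, Y-linked, testis and muscle genes. Tmem88b (chr4:155780591-155782091, at the far end of the gene) stood at 82.5% in P5_a2iL against 1.43% in muscle over 10 cytosines. Its level was 90.5% in P5_2iL, 86.3% in P5_2iL_F and 41.97% in P5_LCDM, so high methylation was shared with the first pair. The window between Peg10, a retrotransposon-derived imprinted gene of the placenta, and Sgce, an imprinted sarcoglycan gene (chr6:4746306-4747806 for Peg10), stood at 85.7% against 13.1% over 49 cytosines. Its differences on the plus and minus strands were 42.9 and 81.4 points. The other teratomas stood between these levels there, at 37.6% to 43.1%. Prm1, a protamine gene of sperm, stood at 78.8% against 7.5% at the far end of the gene, and its short length makes the windows of both ends nearly the same.

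Eif2s3y, a Y-linked gene for a subunit of translation initiation factor 2 needed by spermatogonia, was set apart from the other teratomas. At its start (chrY:1009562-1011062) it stood at 75.8% in P5_a2iL over 16 cytosines, 21.01% in P5_2iL, 21.4% in P5_2iL_F, 12.5% in P5_LCDM and 0% in muscle. Ddx3y, a Y-linked RNA helicase gene, stood at 40.7% in P5_a2iL, 11.4% in P5_2iL, 6.58% in P5_2iL_F, 4.41% in P5_LCDM and 0.779% in muscle at its start, over 63 cytosines. The strands of Ddx3y were unequal, with differences of 7.43 and 69.4 points. Of 4 measured Y-linked genes these 2 were higher and 0 lower, while Usp9y had 85.9% against 78.04% and Kdm5d 88.6% against 97.3%. All 5 libraries listed cytosines of the Y chromosome, from 13576 in P5_a2iL to 16191 in P5_2iL_F, with 13821 in muscle.

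The other higher ends varied in how the remaining teratomas stood. Cldn34c1, a claudin family gene on the X chromosome, stood at 73.9% in P5_a2iL against 0% in muscle. Cldn15, a tight junction gene of the intestine, stood at 86.2% in P5_a2iL, 99.2% in P5_2iL, 81.6% in P5_2iL_F, 27.1% in P5_LCDM and 21.04% in muscle. Pcdha7, of the protocadherin alpha cluster of neurons, stood at 83.3% in P5_a2iL, 43.1% to 60% in the other teratomas and 18.7% in muscle, so P5_a2iL lay above all 3 there. Actl10, Zfp119b, Map3k7cl, Lect2 and S100a16 were higher by 58.3 to 68.6 points. Lect2 encodes a protein secreted by the liver, and S100a16 a calcium-binding protein.

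The lower gene ends with the largest differences included those of white blood cell genes. Itgb2 (chr10:77529329-77530829) and Itgal (chr7:127295139-127296639) encode the chains of the leukocyte integrin LFA-1. Itgb2 stood at 22.5% in P5_a2iL against 70.5% in muscle over 12 cytosines, and Itgal at 21.1% against 67.4% over 14. Vpreb3, of the pre-B cell receptor, stood at 40% against 100% at the far end of its gene. Both integrin genes were lower still in P5_2iL, at 0.617% and 0.938%, while Vpreb3 was at 93.3% there. Runx3, a transcription factor gene of T cells, stood at 35.7% against 73.02%, and Tnfsf14, a cytokine gene of the tumour necrosis factor family, at 34.8% against 71.9%. The window shared by Hcst and Tyrobp, which encode the signalling adaptors DAP10 and DAP12 of natural killer and myeloid cells, stood at 32.4% against 63.1%.

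Others of these 15 belong to no blood list. Dgka, a diacylglycerol kinase gene active in T cells, stood at 16.7% in P5_a2iL against 58.2% in muscle, and Tifab, related to a regulator of NF-kB signalling, at 51.3% against 90.8%. Another RefSeq promoter of Dgka (chr10:128737563-128737862) went the other way, at 47.0% in P5_a2iL against 10.6% in muscle over 21 cytosines. Zscan10, a zinc finger gene of embryonic stem cells, stood at 16.5% in P5_a2iL against 55.5% in muscle over 29 cytosines at the far end of its gene. Arhgef18, a guanine nucleotide exchange factor gene, stood at 27.5% against 70.5%, and Tcl1b1, of the Tcl1 family, at 27.9% against 70.05%. A second promoter of Arhgef18 (chr8:3392758-3393057) was higher, at 46.4% in P5_a2iL against 7.14% in muscle over 7 cytosines. Tns4, a tensin gene of focal adhesions, stood at 40.4% in P5_a2iL and 82.6% in muscle, with the other teratomas at 77.6% to 90.7%. Thus the low level at Tns4 was seen in P5_a2iL and in none of the other 4 libraries. Pex6, a peroxisome biogenesis gene, stood at 53.7% in P5_a2iL, 77.4% to 81.5% in the other teratomas and 89.9% in muscle. With windows of 500 bp to each side, its value was 4 points higher in P5_a2iL. The end was chosen anew in that setting, so this may be the other end of the gene. Mgst2 and Slc29a2, for a glutathione transferase and a nucleoside transporter, stood at 27.9% against 64.1% and at 46.7% against 81.9%.

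P5_a2iL held an intermediate level at many lower ends. Of 84 lower ends measured in all libraries, 14 were under 20% in P5_a2iL, 27 in P5_2iL, 26 in P5_2iL_F, 8 in P5_LCDM and 0 in muscle. The medians were 40.2% in P5_a2iL, 44.2%, 50.8% and 51.8% in P5_2iL, P5_2iL_F and P5_LCDM, and 77.98% in muscle. Of 388 higher ends, 124 were above 80% in P5_a2iL, 209 in P5_2iL, 179 in P5_2iL_F, 77 in P5_LCDM and 0 in muscle. Both counts of 0 in muscle were fixed by the rule. A lower end needs muscle 25 points above P5_a2iL and a higher end needs it 25 points below.

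Genes were then grouped into lists by function, each read against the 2.83% of all gene ends that were higher and the 0.667% that were lower. Muscle genes were higher or did not pass, and 0 were lower in any of the 5 muscle lists, near the share of all ends. An end under 25% in muscle cannot be lower by the rule. Outside the sarcomere list the median levels in muscle were 2.29% to 6.70%, so most of these ends could not be lower. Under some other settings, such as a threshold of 20 points, 1 metabolism gene was lower. The sarcomere list had 7 of 36 measured ends higher, with a median difference of 8.56 points against 0.213 over all gene ends. The share over all ends depends on the kind of end. It was 11.1% with 5 to 9 shared cytosines, 8.54% with 10 to 19, 0.239% with 80 or more, and 8.63% at far ends. No list was matched to all ends for this, so an excess over 2.83% may partly reflect the kind of end. Calcium handling genes had 3 of 14 higher, genes of muscle metabolism 3 of 21, myogenic regulators 4 of 16 and genes of the neuromuscular junction 3 of 14. A level at a gene end is not expression, and the labelled tissue was checked only in this sense. That muscle had the lower level at each called member follows from the call itself, since 0 members were lower. Over all 36 measured sarcomere ends the median was 31.2% in muscle, against 50.5% in P5_a2iL. Most of the sarcomere windows that passed lay at the far end of the gene or had no strand in the table, and over gene starts alone the count was 1, and that of myogenic regulators 2. With 25 points required on each strand alone, 2 sarcomere ends were higher, and 2 of calcium handling, 3 of metabolism, 3 of myogenic regulators and 2 of the neuromuscular junction.

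Sarcomere genes with large differences spanned the thin filament and the Z-disc. Xirp1, an actin-binding gene of striated muscle (chr9:120023098-120024598), stood at 88.1% in P5_a2iL against 33.2% in muscle over 28 cytosines, and its other end was also higher, at 69.4% against 39.3%. Lmod3, a leiomodin of thin filaments (chr6:97252717-97254217), stood at 56.3% against 4.64% over 14. Ldb3, a Z-disc gene, had 46.7% against 4.69% at its start, and the fast troponin I gene Tnni2 72.7% against 36.9%. Tpm3, a tropomyosin gene, was at 100% against 57.8% over 6 cytosines, and Tnnc2, the fast troponin C gene, was higher by 28.6 points. Starts dense in CpG did not differ by 25 points, such as Mylpf with 0.478% against 0.243%, Tpm2 with 3.28% against 1.48% and Des with 14.1% against 4.75%. At Mylpf, a fast myosin light chain gene, the far end stood at 67.6% against 24.1% over 82 cytosines, a window looked up after its value had been seen.

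The myogenic regulators divided in the same way. The higher members were Mamstr (64.4% in P5_a2iL against 15.4% in muscle), Myf5 (81.2% against 37.5% over 8 cytosines), Myf6 (81.9% against 45.7%) and Mymx (77.01% against 44.3%). Myf5 and Myf6 encode basic helix-loop-helix factors of the muscle lineage, and Mymx a peptide of myoblast fusion. Myog, the myogenin gene, was at 89.5% against 69.6% and did not pass, and the CpG-dense end of Myod1 was at 10.7% against 1.89%. At the nerve-muscle contact, the receptor kinase gene Musk (chr4:58284729-58286229) stood at 85.2% against 16.4%, the acetylcholine receptor gene Chrna1 at 98.4% against 52.7% and the caveolin gene Cav3 at 77.96% against 35.7%, each at the start of its gene. Musk was at 75% to 94.8% in the other teratomas.

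Genes of calcium and energy supply were higher at ends of both kinds. Pvalb, the calcium buffer parvalbumin of fast fibres, stood at 61.00% in P5_a2iL against 10.7% in muscle over 7 cytosines. Scn4a, the sodium channel gene of skeletal muscle, stood at 90.04% against 45.1%. Casq2, of the calcium store, stood at 38.8% in P5_a2iL, 2.56% in P5_2iL, 12.2% in P5_2iL_F, 4.06% in P5_LCDM and 4.76% in muscle, so P5_a2iL alone stood above 20% there. The myoglobin gene Mb had 83.5% against 39.5% over 41 cytosines, the muscle enolase gene Eno3 92.6% against 49.6% and the small heat shock protein gene Hspb2 56.8% against 22.6%. Counted as tiles within 5 kb of the genes, 9.66% of 176 tiles around calcium handling genes were higher, near the 9.92% of all tiles. The share was 20.1% of 164 around metabolism genes, 15.5% of 427 around sarcomere genes, 12.3% of 163 around myogenic regulators and 11.6% of 199 around genes of the neuromuscular junction.

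Lymphocyte and leukocyte adhesion genes had lower members. Of 11 ends of lymphocyte receptor genes 4 were lower and 0 higher, with a median difference of -17.4 points. Their median level was 59.8% in P5_a2iL and 86.4% in muscle. Beside Vpreb3 and Tnfsf14 they included Cd6 of T cells with 53.1% against 86.4%, where the strands differed unequally, and 2 of the 4 passed on each strand alone. Of 6 leukocyte adhesion genes 3 were lower, Itgb2, Itgal and Itgax, the last at 19.3% against 58.7% over 7 cytosines. Selplg, the ligand of P-selectin, was higher, at 71.1% against 25.9%. In leukocyte signalling, with 19 ends, the phosphatase gene Ptpn6 was lower at 51.6% against 81.8% and the T cell kinase gene Zap70 higher at 83.4% against 57.2%. Over gene starts alone 1 lymphocyte receptor gene and 1 adhesion gene were lower, since most of these genes had no strand in the table or their window at the far end.

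Blood cell genes of other kinds did not go one way. Of 24 blood transcription factor genes Runx3 was lower and 0 were higher. Of 14 myeloid genes Tyrobp was lower, while Alox5ap, needed for leukotriene synthesis, was higher at 55.5% in P5_a2iL against 14.96% in muscle, as was Cd68, a macrophage lysosomal gene, at 25.9% against 0% over 6 cytosines. Of 6 ends of erythroid and platelet genes 0 passed in either direction. In tiles within 5 kb, 10.8% of 65 around adhesion genes and 5.71% of 315 around signalling genes were lower, against 2.39% of all tiles, and 12.3% and 12.4% were higher, against 9.92%. Around the other 4 blood lists 3.8% to 5.5% of tiles were lower.

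**Figure D5:**
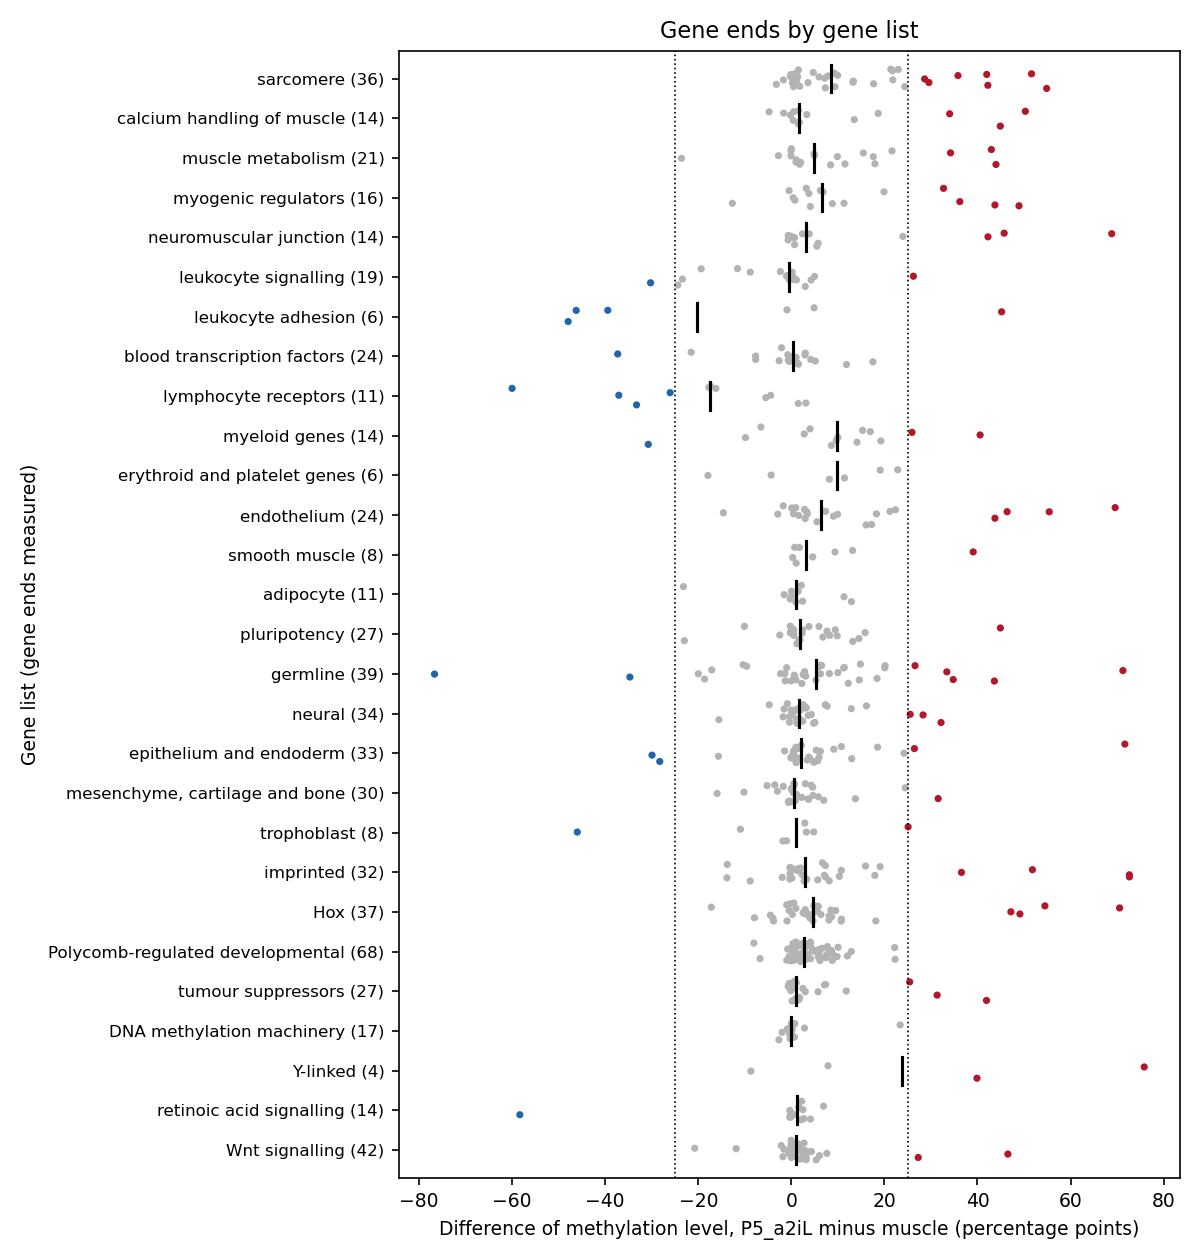
Difference of mean methylation level at gene ends, P5_a2iL minus muscle (percentage points, x axis), for every measured gene of each list (rows, with the number measured), in red where 25 points or more higher, in blue where 25 points or more lower and in grey otherwise, with black bars at the list medians and dotted lines at 25 points. The 5 muscle lists at the top have red points and 0 blue ones, and lymphocyte receptors have 4 blue points and 0 red ones. An end under 25% in muscle cannot be blue, and one above 75% cannot be red. Of the 11 lymphocyte receptor ends only 4 stood under 75% in muscle.

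Vessel and smooth muscle genes had higher members and 0 lower ones, near the 0.667% of all gene ends that were lower. Their median levels in muscle were 11.5% and 3.78%. An end under 25% there cannot be lower by the rule, so most of these ends could not be. Of 24 endothelial genes 4 were higher, with 0 higher over gene starts alone and 2 higher on each strand alone. Angpt2, a ligand of the Tie2 receptor, stood at 78.8% in P5_a2iL against 9.17% in muscle over 8 cytosines, Rasip1 at 70.4% against 14.99%, the adhesion gene Pecam1 at 75.99% against 29.6% and the receptor gene Tie1 at 66.7% against 22.9% over 6. The window of Rasip1 reaches into that of Mamstr downstream. Of 8 smooth muscle genes Lmod1 was higher, at 61.3% against 22.3%. Of 11 adipocyte genes 0 passed, with a median difference of 0.985 points.

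Imprinted genes moved upward at the few that passed. Of 32 measured, 4 were higher and 0 lower, and Peg10 and Sgce share 1 window, so the count is 3 windows, and over gene starts alone it is 2. Mcts2, an imprinted retrogene within H13, stood at 82.4% in P5_a2iL, 97.4% in P5_2iL, 89.6% in P5_2iL_F, 33.2% in P5_LCDM and 30.6% in muscle, over 78 cytosines at its start. Ndn, of the Prader-Willi region, stood at 47.1% in P5_a2iL, 20.03% to 26.04% in the other teratomas and 10.5% in muscle. The other imprinted windows did not pass, such as Zrsr1 with 53.4% against 50.7%, Plagl1 with 42.6% against 51.5%, Magel2 with 42.5% against 41.1% and Peg3 with 25.7% against 39.5%, the lowest difference of the list.

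At the Hox clusters, the main windows that passed lay between Hoxa3 and Hoxa6 and at Hoxb6. Of 37 measured Hox genes 4 were higher and 0 lower, with 1 higher over gene starts alone. Hoxa3 (chr6:52168059-52169559) stood at 78.6% in P5_a2iL against 8.06% in muscle, Hoxa5 at 75.1% against 27.97% over 118 cytosines, Hoxa6 at 72.9% against 23.8% and Hoxb6 at 62.7% against 8.16%. The windows of Hoxa5 and Hoxa6 overlap, so 1 stretch of DNA stands behind both. The body of Hoxa3, whose RefSeq gene spans Hoxa5 and Hoxa6, was also higher, at 49.1% against 22.02% over 612 cytosines. The other 33 had differences from -17.2 points at Hoxa2 to 18.1 at Hoxc6. At ends that were not the main window, and looked up after their values were known, Hoxd9 stood lower at 15.8% against 52.2%, Hoxd3 at 55.05% against 90.99% and Hoxa11 at 44% against 80%. The 300-base promoter of Hoxd10, also named after its value was seen, was higher at 44.9% in P5_a2iL against 0% in muscle over 16 cytosines, with 3.35% to 9.58% in the other teratomas and strand differences of 50 and 6.06 points. Of 214 tiles within 5 kb of Hox genes 10.7% were higher and 7.48% lower, against 9.92% and 2.39% of all tiles. Of 68 Polycomb-regulated developmental genes 0 passed in either direction, with a median difference of 2.73 points.

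Pluripotency genes stood close to muscle in the teratoma. Of 27 measured, Lefty1, a Nodal antagonist, was higher at 87.5% in P5_a2iL against 42.6% in muscle, and 0 were lower. Pou5f1, which encodes Oct4, stood at 63.4% against 56.6%, Zfp42, also called Rex1, at 85.01% against 71.8%, Dppa4 at 85.7% against 85.7% and Sox2 at 8.96% against 0.705%. Germline genes were measured at 39 ends, with 5 higher and 2 lower, at a median level of 80% in P5_a2iL and 77.6% in muscle. Beside Prm1, the higher ones were Tdrd6 of the piRNA granule with 75.2% against 31.6%, the cohesin gene Stag3 with 36.9% against 3.49%, Stk31 with 91.3% against 56.5% and Hormad2 with 78.2% against 51.6%. The lower ones were Zar1l of oocytes with 23.3% against 100% over 5 cytosines and Sohlh1, a germ cell transcription factor gene, with 42.9% against 77.6% over 7.

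Lists of other tissues a teratoma can hold had few members past the rule. Of 34 neural genes 3 were higher and 0 lower. Nefm, the medium neurofilament gene, stood at 33.2% in P5_a2iL against 1.06% in muscle over 121 cytosines, and at 4.62% to 16.5% in the other teratomas, while Rbfox3 and the astrocyte gene Gfap were higher by 28.3 and 25.5 points. Of 33 genes of epithelium and endoderm, Cldn6 (76.7% against 5% over 5 cytosines) and the keratin gene Krt7 (66.02% against 39.6%) were higher. Ehf, an epithelial ETS factor gene, and Tff3, a mucosal peptide gene, were lower, at 40.1% against 70.03% and 43.1% against 71.4%. Of 30 genes of mesenchyme, cartilage and bone Thy1 was higher, at 88.2% against 56.7%, and of 8 trophoblast genes Tfap2c was higher by 25.1 points and the pregnancy-specific glycoprotein gene Psg28 lower, at 50% against 96% over 5 cytosines.

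Signalling and growth control genes showed single members. Rara, a retinoic acid receptor gene, stood at 0% in P5_a2iL against 58.3% in muscle at its start (chr11:98926800-98928300) over 8 cytosines, and was the only member of 14 in its list to pass. Within the same gene 5 tiles in a run (chr11:98967001-98974000) went the other way, at 80.2% against 48.4%. Of 42 Wnt genes Axin2, a feedback inhibitor, was higher at 51.2% against 4.69%, and the ligand gene Wnt9b at 34.99% against 7.72%. Of 27 tumour suppressor genes 3 were higher, the Wnt antagonist Dkk3 at 45.9% against 3.98%, the death-associated kinase gene Dapk1 at 31.6% against 0.251% and the glutathione transferase gene Gstp2 at 84.5% against 59.1%. Dapk1 was at 0.457% to 5.38% in the other teratomas, and its strand differences were 41.96 and 0 points. Of 17 genes of the methylation machinery 0 passed, and Uhrf1, which guides Dnmt1 to replicated DNA, had the largest difference there, at 27.7% against 4.32%.

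Gene bodies, taken from 2000 bp inside either end with 20 or more shared cytosines, were almost always higher where they passed. Of 9282 bodies 211 were higher (2.27%) and 13 lower (0.14%), around a median difference of 3.92 points. Rgs14, a regulator of G protein signalling (chr13:55371732-55382687), stood at 85.9% in P5_a2iL against 9.36% in muscle over 52 cytosines. Fzd4, a Wnt and norrin receptor gene of vessels, stood at 81.7% against 13.2% over 42. Mex3a, an RNA-binding protein gene with 104 cytosines, stood at 72.1% in P5_a2iL, 71.99% in P5_2iL, 74.2% in P5_2iL_F, 36.4% in P5_LCDM and 13.4% in muscle. Cpeb4, of translational control, had the same order of P5_a2iL and P5_LCDM, with 67.4% and 15.5%, and 5.44% in muscle. Bsg, the partner of monocarboxylate transporters, Btbd3, Pdzd8 and S1pr2 were higher by 53.7 to 59.1 points.

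Muscle genes were among the higher bodies too. Myot, a Z-disc gene, stood at 78.3% in P5_a2iL against 29.5% in muscle over 26 cytosines, Atp2a1, the calcium pump of fast fibres, at 77.1% against 44.3% and Smyd1, a methyltransferase gene of muscle, at 80.2% against 53.1%. Klhl40 and Cryab were higher by 31.8 and 31.1 points. Of 35 measured sarcomere bodies 2 were higher, of 13 each of calcium handling, metabolism and myogenic regulators 1 each, and of 12 of the neuromuscular junction 0, beside 2.27% of all bodies. In these lists 0 bodies were lower, near the 0.14% of all bodies.

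Lower bodies were few. Osr2, a transcription factor gene of palate and joints, stood at 10.2% in P5_a2iL against 41.6% in muscle over 123 cytosines (chr15:35298098-35301305), and at 8.1% to 15.2% in the other teratomas, so muscle stood apart from all 4. Ten1, a telomere protein gene, and Rmdn3, an anchor between endoplasmic reticulum and mitochondria, were also lower, but there P5_a2iL stood apart. P5_a2iL had 55.9% and 52.1%, with 82.98% to 96.9% and 86.7% to 93.01% in the other teratomas, and 85.1% and 81.2% in muscle. Plet1, a surface gene of placenta and epithelial progenitors, stood at 59.5% against 87.2%, and Trip11, a golgin gene, at 47.3% against 74.8%. The body of Sox9, the cartilage regulator, was also lower, at 16.97% against 50.99%, with strand differences of -8.68 and -35.9 points. On each strand alone, 117 bodies passed upward and 8 downward, and of the 13 lower ones 5 did so.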

How the data were processed

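Reduced representation bisulfite libraries of 1 P5_a2iL teratoma and 1 muscle were compared, with 3 other teratoma libraries for levels only. The deposited values are the methylation level of each CpG cytosine in percent, each strand on its own line, without read numbers. Reads were processed with Bismark and Trim Galore 0.6.4 on build mm10, per the submitters' processing notes. Settings, coverage minimum and the Bismark version were not given in the sources used here. PCR amplification preceded gel isolation of fragments, per the labels, so reads are not independent molecules. Without counts no interval, coverage minimum or test was possible, and the size rule of 25 points replaced them.

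The second column of the files was taken as the 1-based cytosine position, checked on RefSeq promoters of GRCm38.p6 (the build of mm10), where 495270 of 495270 listed positions were the C or G of a CG. Each shared cytosine had equal weight in tiles (5 or more), gene ends (5 or more) and gene bodies (20 or more) of 21887 protein coding RefSeq genes, of which 17492 have a strand in the promoter table.

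Named windows are the 15 gene ends and 6 tiles with the largest difference each way, called, with 10 or more shared cytosines and 25 points on each strand alone. No 2 named tiles lie within 5 kb. The 8 gene bodies each way need only the strand condition, and 5 qualified downward. Of each list at most 5 called members each way are named, beside members below the rule given for contrast, and some called members are not reported here. The members and lists were chosen with earlier results of these data known. Other settings tried were thresholds, minimum numbers of cytosines, tile size and offset, windows, medians, CpG averaging, autosomes, cytosines of all files and subtraction of the library means. Tools were pandas 2.3.3 and NumPy 2.4.6 under Python 3.11.15, with matplotlib 3.10.9 for figures, and the window code was tested on simulated data.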

Additional observations from a re-analysis of the deposited data

Results flagged for a closer look

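Cytosines outside the chromosomes compared gave 2 values to look at. On the mitochondrial genome the mean methylation level was 4.95% in P5_a2iL over 116 listed CpG cytosines, with 7 above 10%, against 0.411% in muscle over 265, with 1 above 10%. The other teratomas stood at 0.0873% to 0.138% there, with 0 above 10%. Unplaced contigs stood at 74.7% in P5_a2iL over 3342 cytosines, against 73.6% in muscle over 2944. Both values come from single libraries, and no cause was tested.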

How the results depend on the processing

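No paired analysis was possible because each group holds 1 library and the result comes from no test, and for the same reason no replicate could be left out. More windows were higher than lower under every setting tried for tiles, gene ends and gene bodies. Of 76 counts and mean differences under another setting, 44 stayed within 1.5 times of the value reported, and 32 did not. Gene ends kept their direction except 1 of 296 values, Pex6, at 4 points in a window of 500 bp to each side. That setting chose the end of each gene anew, so the Pex6 value may be of its other end. All 104 values of named gene bodies kept theirs, with Trip11 at -24.2 when strands were averaged. Of 728 counts of list members under another setting, 145 moved by more than 1.5 times, many of them counts of 5 or fewer.

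At a threshold of 20 points, lower tiles numbered 6751, lower gene ends 160, higher bodies 405 and lower bodies 39. At 40 points there were 6671 higher and 1043 lower tiles, 151 and 27 gene ends, and 21 and 0 bodies. On each strand alone there were 5742 and 806 tiles, 166 and 37 gene ends, and 117 and 8 bodies. With medians in place of means, lower tiles numbered 7397, lower gene ends 176, higher bodies 660 and lower bodies 93.

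With a minimum of 3 cytosines there were 7766 lower tiles, and with 10 there were 7894 higher and 1389 lower ones and 41 lower gene ends. With 10 cytosines per body 337 were higher and 38 lower, and with 40, 116 and 4. After the difference of the library means was subtracted, 126 bodies were higher and 30 lower. Over gene starts alone, a setting chosen after seeing the data that tests fewer genes, 226 gene ends were higher and 52 lower. Depth per cytosine is unknown and limits every single value. Where no construction of the setting shows the cause of a change, the cause was not tested.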

Other observations

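A few values stand outside the comparisons. Fzd9, a Wnt receptor gene, stood at 94.1% in P5_a2iL against 27% in muscle over 5 cytosines at the end of the gene that was not its main window, and Cbfa2t3, a corepressor gene of blood cells, at 62.2% against 1.93% over 20. Among muscle genes, the other end of Pygm, the muscle glycogen phosphorylase gene, stood at 53.6% against 16.4% and that of Tmod4, a tropomodulin gene, at 85.1% against 48.9%. Gys1, the glycogen synthase gene of muscle, stood at 62.7% in P5_a2iL, 19.2% to 24.4% in the other teratomas and 18.1% in muscle at its far end. Going the other way, Rarg, a retinoic acid receptor gene, stood at 28.8% against 73.8% at its far end, and Rac2, which encodes a GTPase of white blood cells, at 55.6% against 94.4% over 8. These ends were picked after their values had been seen.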
